A study of Homo sapiens with 39 samples.

Results

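The CD1 family comprises 5 genes, CD1A, CD1B, CD1C, CD1D and CD1E, and all 5 were measured on the array, on 16 of its 49395 probe sets. Members were taken by symbol: every probe set that the platform annotation assigns to 1 CD1 gene and to no other gene. CD1D had 2 such probe sets, CD1A had 1, CD1B had 3, CD1C had 2 and CD1E had 8. Of a gene's probe sets the brightest on average across the 39 arrays was used, which gave 18132 genes in all. The family was chosen by measured values: CD1D stood high among the differences between tamibarotene and vehicle in these arrays. Its drug response is therefore described here with its standard error (SE) and without a test.

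The study exposed 7 human acute myeloid leukaemia (AML) cell lines to tamibarotene (SY-1425), a synthetic retinoid that activates the retinoic acid receptor alpha, and compared them with cells of the same line given dimethyl sulfoxide (DMSO), the vehicle. The labels give 24 h of exposure in both arms and, for the drug, 100 nM added for a final 50 nM. The tamibarotene arm had 3 arrays in each line (21 in all). The vehicle arm had 3 arrays each in MV-4-11, OCI-AML3, NOMO-1 and OCI-M1 and 2 each in Sig-M5, Kasumi-1 and KG-1a (18 in all). The lines differ in origin: MV-4-11 and NOMO-1 carry KMT2A fusions, OCI-AML3 carries mutant NPM1, Sig-M5 is monocytic, Kasumi-1 carries the RUNX1::RUNX1T1 fusion, KG-1a is an immature blast line and OCI-M1 is an erythroleukaemia line. Each line is a single culture model of 1 leukaemia, and the labels do not say whether the arrays of a group came from separate cultures, so the spread between them may be technical.

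CD1 proteins resemble major histocompatibility complex (MHC) class I molecules: a heavy chain pairs with beta-2 microglobulin, but the groove is lined for lipids instead of peptides. CD1A, CD1B and CD1C show lipids to T cells with diverse receptors, CD1D shows glycolipids to natural killer T (NKT) cells, and CD1E stays inside the cell and helps to load lipids on the others. Cells of the monocyte and dendritic lineages are the best known carriers of CD1 proteins. In human monocyte-derived dendritic cells, CD1D is known to respond to retinoic acid.

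The sequences just before the annotated starts of the CD1 genes are shown first, because CD1D differed more with a retinoid than the neighbouring CD1 genes on chromosome 1. Retinoic acid receptors bind as dimers to repeats of a hexamer. RefSeq on GRCh38.p14 gave 6 windows of 250 bases before a start for 4 of the 5 genes (CD1D, CD1A, CD1C and CD1E), all on the + strand. CD1B has no window shown. Capitals mark a match to AGGTCA or GGGTCA or AGTTCA or GGTTCA on either strand, so that TGACCC and TGACCT are minus-strand matches. The first CD1D window lies at chr1:158179697-158179946, the second at chr1:158180645-158180894, the CD1C window at chr1:158289673-158289922 and the first CD1A window at chr1:158248086-158248335.
CD1D, first start: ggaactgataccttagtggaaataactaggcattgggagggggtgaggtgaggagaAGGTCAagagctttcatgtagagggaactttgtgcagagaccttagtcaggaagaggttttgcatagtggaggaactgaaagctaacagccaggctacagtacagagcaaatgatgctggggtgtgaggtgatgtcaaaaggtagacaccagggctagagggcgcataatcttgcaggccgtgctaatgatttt
CD1D, second start: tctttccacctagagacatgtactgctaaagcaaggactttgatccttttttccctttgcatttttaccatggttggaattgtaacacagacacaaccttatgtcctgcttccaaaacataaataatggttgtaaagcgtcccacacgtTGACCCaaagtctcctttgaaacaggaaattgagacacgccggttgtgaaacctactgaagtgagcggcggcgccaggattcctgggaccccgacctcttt
CD1C: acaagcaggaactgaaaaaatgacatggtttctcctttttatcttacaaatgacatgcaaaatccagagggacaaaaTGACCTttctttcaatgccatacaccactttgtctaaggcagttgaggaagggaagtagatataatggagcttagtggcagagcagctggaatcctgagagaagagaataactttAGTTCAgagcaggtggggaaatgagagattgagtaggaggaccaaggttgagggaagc
CD1A, first start: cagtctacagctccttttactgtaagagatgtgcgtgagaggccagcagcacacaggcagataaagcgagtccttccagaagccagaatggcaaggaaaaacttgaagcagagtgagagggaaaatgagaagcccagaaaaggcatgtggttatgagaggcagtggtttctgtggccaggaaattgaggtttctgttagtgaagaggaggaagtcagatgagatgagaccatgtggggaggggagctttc

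Each CD1D window held 1 hexamer: AGGTCA on the + strand 194 to 189 bases before the first start, and GGGTCA on the minus strand 101 to 96 bases before the second. The CD1C window held AGGTCA on the minus strand, 173 to 168 bases before the start, and AGTTCA on the + strand, 58 to 53 bases before it. Neither CD1A window nor the CD1E window held any of the 4 hexamers. Of 35116 RefSeq windows of the same length, 33.8% held at least 1 of the 4, which makes a single match common. Direct repeats of the hexamers with 1, 2 or 5 bases between were in 0.0968%, 0.0313% and 0.074% of all windows and in none of the CD1 windows. GAGGAA, a core that factors of the ETS family such as SPI1 can bind, was in the first CD1D window, the CD1C window and the first CD1A window, against 23.6% of all windows. These are matches of letters and not measured binding sites.

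Levels are log2 values after robust multi-array average (RMA) normalization, so a difference of 1 is a 2-fold difference, and levels of different probe sets are not comparable with each other. The median probe set level lay between 5.01 and 5.17 on every array. The deposited values carry no call of detection. As a guide to the dim end, 26 genes restricted to other tissues were used, such as glucagon and albumin. Their median was 4.03 and their 95th percentile 6.33 over the 39 arrays. Some of them read above that level in vehicle cells of single lines, such as albumin at 8.56 in OCI-M1 and OLIG2 at 8.47 in NOMO-1. ACTA1 was above it in vehicle cells of 5 lines. Probe sets differ in their own background, so this guide level of 6.33 is approximate. CD1D lay above it with tamibarotene in 4 lines (MV-4-11, OCI-AML3, NOMO-1 and Sig-M5) and with vehicle in 2 (OCI-AML3 and NOMO-1). CD1C lay above it only in OCI-AML3 with tamibarotene, at 6.39, and CD1A, CD1B and CD1E lay below it in every line in both arms. The myeloid identity of the lines was uneven: MPO (myeloperoxidase) in vehicle cells spanned 4.03 to 13.87, highest in Sig-M5, LYZ (lysozyme) 5.14 to 13.66 and PTPRC (the leukocyte antigen CD45) 5.11 to 8.57. CD3D, a T cell receptor chain, was at 12.26 in vehicle KG-1a cells and at 3.22 in the line with the lowest level, while CD3E and CD3G stayed below 4.66 in vehicle cells of all lines. No T cell marker (6 measured) or B cell marker (4 measured) passed limma's test of tamibarotene against vehicle, described further on, in any line; of their 42 and 28 differences, 4 and 1 had an unadjusted p below 0.05.

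CD1D was higher with tamibarotene in MV-4-11, OCI-AML3, NOMO-1 and Sig-M5, by 3.18 to 6.51 on the log2 scale, and differed by 0.53 or less in either direction in Kasumi-1, KG-1a and OCI-M1. In bulk RNA, more cells with CD1D and more CD1D RNA per cell cannot be told apart. In MV-4-11, CD1D was at 11.81, 11.75 and 11.73 on the tamibarotene arrays, against 5.41, 4.87 and 5.47 on the vehicle arrays. The groups lay far apart, with a difference of 6.51 ± 0.14 on the log2 scale (SE; n = 3 and 3). The vehicle arrays were below the guide level, so no fold is given. In Sig-M5, the tamibarotene arrays read 10.80, 10.79 and 10.91, against 5.82 and 5.56 with vehicle. That gap was 5.15 ± 0.15 (SE; n = 3 and 2), again against vehicle arrays below the guide level.

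OCI-AML3 cells had 12.95, 13.05 and 12.98 with tamibarotene, against 9.47, 9.48 and 9.40 with vehicle. The 2 groups were tight and apart, by 3.54 ± 0.14 (11.7-fold; SE, n = 3 each). NOMO-1 cells had 11.08, 11.36 and 11.16 with tamibarotene, against 7.99, 8.12 and 7.94 with vehicle, a difference of 3.18 ± 0.14 (9.07-fold; SE, n = 3 each). Among the 18132 genes sorted by rise, CD1D held rank 2 in Sig-M5, rank 3 in MV-4-11, rank 4 in NOMO-1 and rank 10 in OCI-AML3. These ranks describe the contrast on which the family was picked and support nothing beyond it.

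Kasumi-1 cells read 4.19, 3.80 and 3.77 with tamibarotene, against 4.61 and 4.28 with vehicle. The arrays did not overlap, with a difference of -0.53 ± 0.15 (SE; n = 3 and 2). KG-1a cells read 3.47, 3.65 and 3.29 with tamibarotene, against 3.56 and 3.88 with vehicle, and the groups overlapped (difference -0.25 ± 0.15). OCI-M1 cells read 3.99, 4.26 and 3.79 with tamibarotene, against 3.82, 3.77 and 3.71 with vehicle, which also overlapped (difference 0.24 ± 0.14). In these 3 lines both arms lay below the guide level, so no direction is read from the differences. A rank of 916 among rises in OCI-M1 shows how common a difference of that size was in that line.

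**Figure D1:**
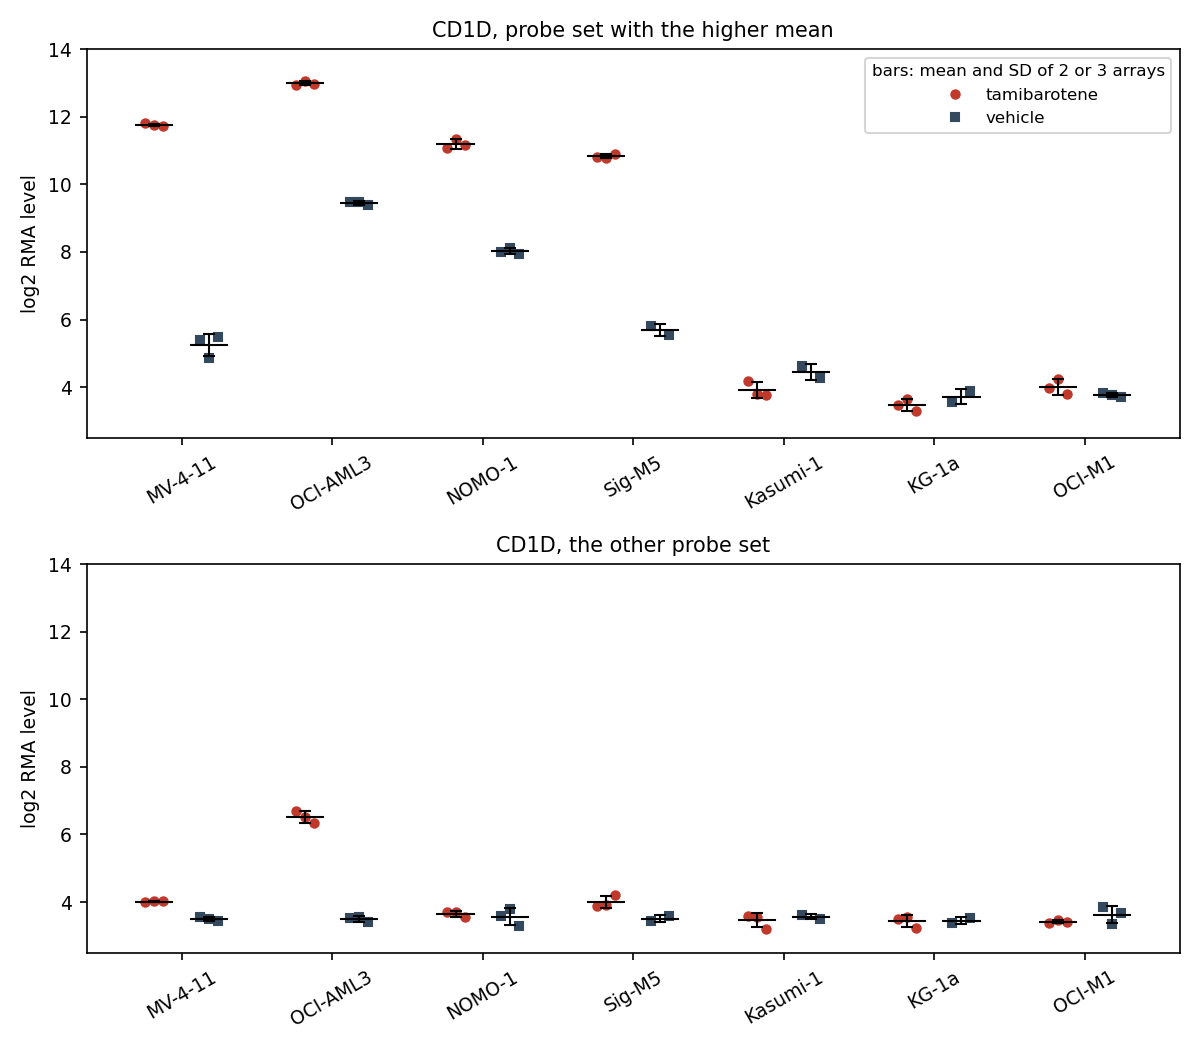
CD1D on its 2 probe sets, with log2 RMA level on the y axis and the 7 cell lines on the x axis. Points are arrays, tamibarotene (circles) left of vehicle (squares), and bars show the mean and SD. On the brighter probe set the tamibarotene arrays of MV-4-11, OCI-AML3, NOMO-1 and Sig-M5 lie between 10.79 and 13.05, all above the vehicle arrays of the same line, while the other probe set separates widely only in OCI-AML3.

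The second CD1D probe set gave a different picture in size. In OCI-AML3 it read 6.70, 6.52 and 6.32 with tamibarotene, against 3.52, 3.56 and 3.40 with vehicle, a difference of 3.02. Its differences were smaller in the other lines: it averaged 4.02 with tamibarotene against 3.50 with vehicle in MV-4-11 and 3.65 with tamibarotene against 3.56 with vehicle in NOMO-1, and its difference was 0.50 in Sig-M5. In OCI-M1 its difference was -0.21. Averaging both probe sets therefore reduced the CD1D difference to 3.51 in MV-4-11, 3.28 in OCI-AML3, 2.82 in Sig-M5 and 1.64 in NOMO-1. The difference was above 0 in those 4 lines on both probe sets, but on the second one the NOMO-1 arrays overlapped (0.09 ± 0.13, SE). The mean of the second probe set passed the guide level only in OCI-AML3 with tamibarotene, at 6.51. No direction is therefore read from it in the other lines. The sequences of the probes were not analysed here, so which transcripts each probe set reads was not determined.

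Without drug, the lines already differed in CD1D, with OCI-AML3 at 9.45 and KG-1a at 3.72 (limma's moderated F test over the 7 vehicle means, Benjamini-Hochberg adjusted p = 4.82e-26). That test called 78.6% of all genes, so a difference between lines was the rule. The vehicle order was OCI-AML3 at 9.45 ± 0.05, NOMO-1 at 8.02 ± 0.09, Sig-M5 at 5.69 ± 0.18, MV-4-11 at 5.25 ± 0.33, Kasumi-1 at 4.45 ± 0.23, OCI-M1 at 3.77 ± 0.06 and KG-1a at 3.72 ± 0.23 (SD; n = 2 or 3). Only OCI-M1 and KG-1a had overlapping arrays among neighbours in that order. With tamibarotene the order became OCI-AML3, MV-4-11, NOMO-1, Sig-M5, OCI-M1, Kasumi-1 and KG-1a, and MV-4-11, which held rank 4 without drug, reached 11.76. The 4 lines with the highest vehicle levels were the 4 in which CD1D was higher with drug. Within them, MV-4-11 and Sig-M5 had the lower vehicle levels and the larger differences, and the vehicle level is part of both values.

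The other CD1 genes differed by -0.44 to 0.59 on the log2 scale, mostly at levels below the guide level. CD1A, a marker of Langerhans cells and cortical thymocytes, stood out in OCI-AML3, where its arrays read 5.39, 5.56 and 5.21 with tamibarotene, against 5.80, 6.16 and 5.53 with vehicle. The groups overlapped by 1 pair of arrays, and the difference was -0.44 ± 0.12 (SE, n = 3 each). As CD1A lay below the guide level in both arms of every line, no direction is read from its differences. In MV-4-11 CD1A read 3.95, 4.02 and 4.12 with tamibarotene, against 3.81, 3.53 and 3.73 with vehicle, and the groups did not overlap (0.34 ± 0.12). CD1A was lower without overlap in KG-1a (-0.22) and OCI-M1 (-0.16) and differed by -0.07 in NOMO-1 and by less in Sig-M5 and Kasumi-1, where the arrays overlapped.

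CD1C, found on conventional dendritic cells and some B cells, was higher in MV-4-11, at 5.40, 5.36 and 5.44 with tamibarotene, against 4.70, 4.70 and 5.02 with vehicle. The difference was 0.59 ± 0.16 without overlap. In OCI-AML3 the values were 6.28, 6.63 and 6.26 with tamibarotene, against 5.89, 6.33 and 5.52 with vehicle, and they overlapped (0.47 ± 0.16). The remaining lines differed by -0.09 to 0.16. The other CD1C probe set ranged from -0.38 in Sig-M5 to 0.25 in NOMO-1. It was higher without overlap in MV-4-11 (0.21) and NOMO-1 (0.25), where the brighter probe set differed by 0.59 and 0.16.

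CD1B, which loads long-chain mycobacterial and self lipids, stayed between 2.87 and 3.86 on all 39 arrays. Its differences lay between -0.35 (OCI-M1) and 0.09 (MV-4-11), lower without overlap in OCI-M1 and Sig-M5 (-0.31). The other 2 CD1B probe sets did not share that direction in Sig-M5: one differed by 0.02, and the other by 0.20, higher without overlap, as it also was in MV-4-11 (0.36). In OCI-M1 they differed by -0.06 and -0.11, with overlap. CD1E, the intracellular member, stayed between 4.99 and 5.80, with differences from -0.20 in Sig-M5 to 0.19 in NOMO-1 and lower values without overlap in KG-1a (-0.13). Over the other 7 CD1E probe sets the differences ran from -0.50 in OCI-AML3 to 0.32 in Sig-M5.

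**Figure D2:**
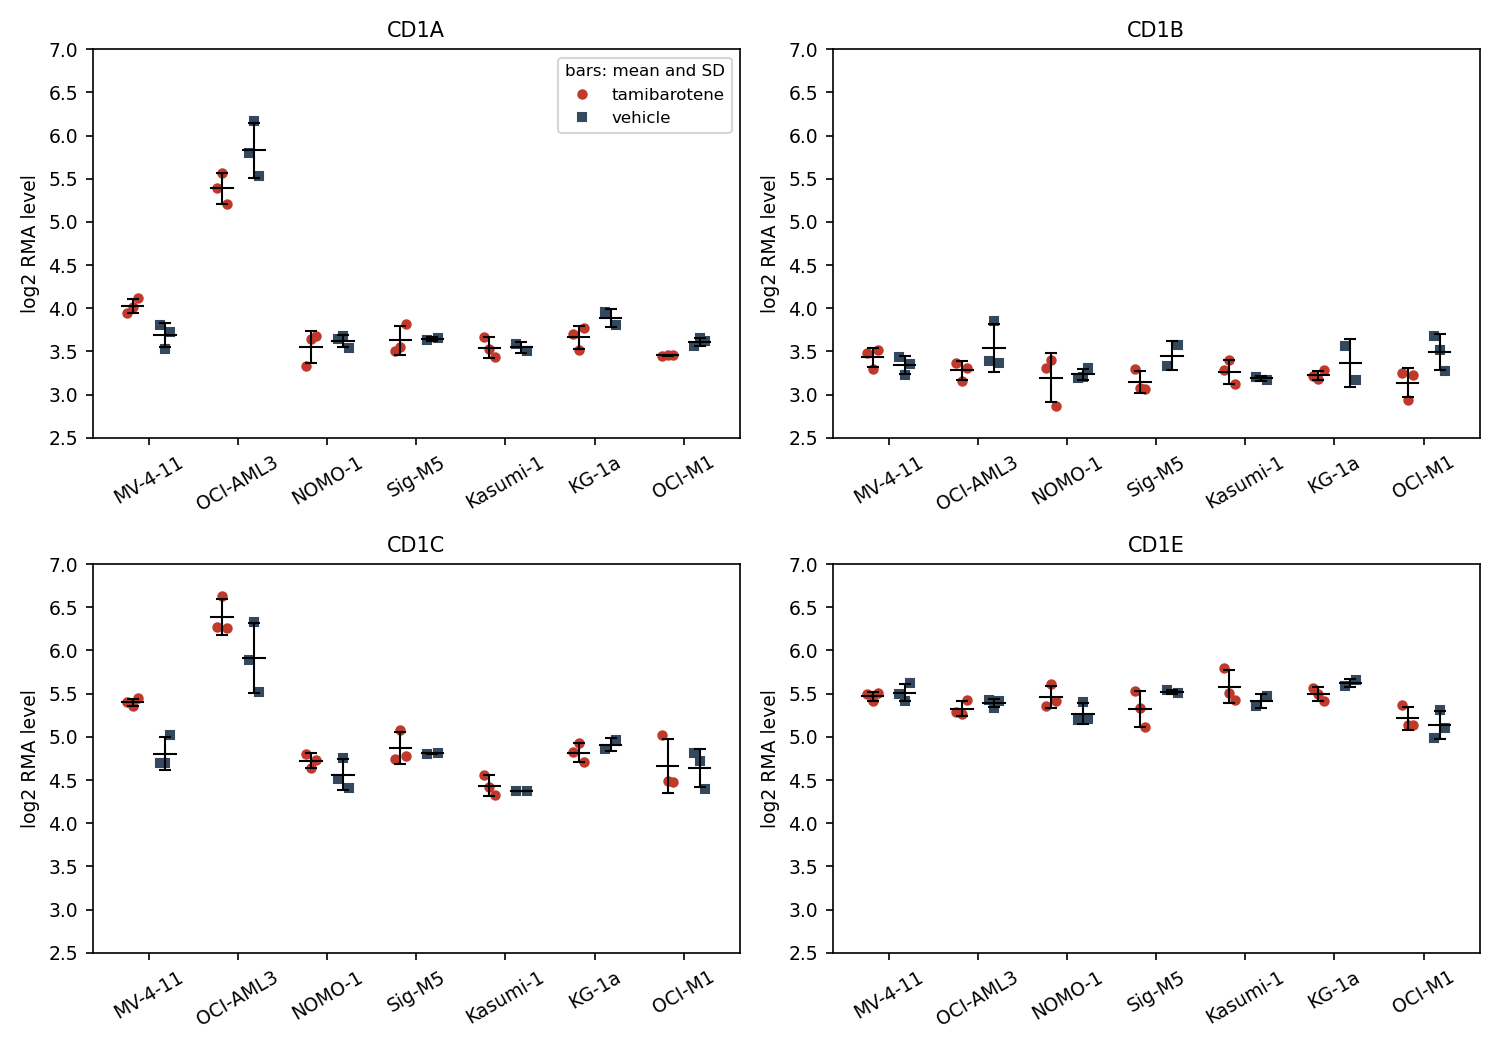
Log2 RMA level (y axis) of CD1A, CD1B, CD1C and CD1E in the 7 cell lines (x axis), 1 panel a gene on a shared scale. Points are arrays, tamibarotene left of vehicle, and bars show the mean and SD; CD1A and CD1C stand apart in OCI-AML3 in both arms, while vehicle means span 0.35 for CD1B and 0.49 for CD1E.

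In vehicle cells CD1A was highest in OCI-AML3 (5.83 ± 0.32), followed by KG-1a (3.89 ± 0.11), and neighbours in the order of the other 5 lines overlapped (F test adjusted p = 9.88e-17, limma). CD1C was also highest in OCI-AML3 (5.91 ± 0.40) ahead of KG-1a (4.91 ± 0.07; adjusted p = 1.7e-08, limma). OCI-AML3 thus had the highest vehicle mean of CD1A, CD1C and CD1D, of which only CD1D was above the guide level. CD1E spanned 0.49 between lines (limma adjusted p = 0.00442) and CD1B 0.35 (limma adjusted p = 0.216), against a median span of 1.04 over all genes. CD1B passed the test when its 3 probe sets were averaged (limma adjusted p = 0.017).

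On the probe sets used, counting members whose tamibarotene and vehicle arrays did not overlap, MV-4-11 had 3 of 5 higher (CD1D, CD1C and CD1A) where 9.32% of all genes were higher without overlap. OCI-AML3 and NOMO-1 each had CD1D alone higher, beside 12.9% and 11.1% of all genes, and 4.89% of all genes were lower without overlap in NOMO-1. Sig-M5 had CD1D higher and CD1B lower, beside 16% of genes higher and 31.9% lower. Kasumi-1 had CD1D lower (background 15.5%), KG-1a had CD1A and CD1E lower (23.2%), and OCI-M1 had CD1A and CD1B lower (6.31%). Since the contrast chose the family, nothing is read from these shares.

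The CD1 genes lie in a cluster on chromosome 1, and the 10 measured genes on each side of it were tested. Over those 20 genes and 7 lines, 0 of 140 differences passed limma's moderated test at an adjusted p of 0.05, and 9 had an unadjusted p below 0.05. By line, 0.48% to 8.5% of all genes rose and 0.386% to 18.4% fell in that test. In 137 of the 140 the neighbour lay below the guide level in both arms. The differences ran from -0.49 (FCRL1 in Sig-M5) to 0.36 (OR10R2 in NOMO-1). By line, the neighbour with the greatest difference was ETV3L in MV-4-11 (-0.22), OR6K2 in OCI-AML3 (-0.24), OR6Y1 in Kasumi-1 (0.29), OR6P1 in KG-1a (-0.30) and ARHGEF11 in OCI-M1 (-0.24).

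Genes that serve CD1 were examined next, in 10 lists with 90 measured genes. The lists were chosen with earlier results of these data known, so their counts are a description. Each was tested with limma's moderated test of tamibarotene against vehicle in each line, with p adjusted by Benjamini-Hochberg over all 18132 genes, and "rose" and "fell" below mean an adjusted p under 0.05. Of the 90 genes, 16 rose and 1 fell in MV-4-11, where 4.32% of all genes rose and 3.4% fell. In OCI-AML3, 18 rose and 3 fell, beside 5.5% and 6.36% of all genes. In NOMO-1, 12 rose and 2 fell, beside 2.77% and 0.711% of all genes. In Sig-M5, 24 rose and 13 fell, beside 8.5% and 18.4% of all genes. In the lines where CD1D was not higher, 0 rose and 2 fell in Kasumi-1 (0.48% and 2.36% of all genes), 1 rose and 1 fell in KG-1a (1.21% and 1.88%), and 2 rose and 1 fell in OCI-M1 (0.7% and 0.386%). As shares of the 90, the genes called in either direction made up 18.9% in MV-4-11, 23.3% in OCI-AML3, 15.6% in NOMO-1, 41.1% in Sig-M5, 2.22% each in Kasumi-1 and KG-1a and 3.33% in OCI-M1. In Kasumi-1, 5 rises had an unadjusted p below 0.05. The median change of the 90 genes lay between -0.05 and 0.07, against -0.10 to 0.02 for all genes. The shares of all genes given above are also the background for the counts of each list below. More of all genes also rose in the 4 lines where CD1D was higher than in the other 3. Rises in the same lines as CD1D, below, are therefore not read as a link to it.

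Some of these counts rest on single arrays, numbered here as the labels number the replicates. Without Sig-M5 vehicle array 2, whose beta-actin 3' to 5' difference was 1.89, against 0.31 to 0.34 on the tamibarotene arrays and 0.81 on the other vehicle array, 16 rose and 4 fell in Sig-M5, and 13 rose and 2 fell with that difference as a covariate. In Kasumi-1, 4 rose and 7 fell without vehicle array 3, and 0 fell without vehicle array 2, whose actin difference was 1.18, or without tamibarotene array 2. Without tamibarotene array 3, 1 fell in Kasumi-1. In NOMO-1, 5 fell without vehicle array 2, 1 without vehicle array 1 or tamibarotene array 3, and 0 without vehicle array 3 or tamibarotene array 2. In MV-4-11, 2 fell without tamibarotene array 2, and in OCI-M1 the single fall was lost without any one array except tamibarotene array 3. In OCI-M1, 1 rose without tamibarotene array 2 or 3 or vehicle array 1. The CD1D difference in Sig-M5 was 5.28 without vehicle array 1, 5.02 without vehicle array 2 and 5.16 with the covariate. Of the 100 calls of named genes in the lists described next and among the markers, 25 were lost when each line was fitted alone, 10 of them in NOMO-1 (PSAP, MR1, PPARG, AP3S1, CTSD, FABP4, HEXA, LIPA, SGMS1 and SGMS2). With the actin covariate 22 were lost (20 in Sig-M5), 12 with array weights and 9 on averaging the probe sets of a gene. In 12 of the 100, both arms lay below the guide level. They were IL18 in OCI-AML3, CD36, FABP4 and SGMS2 in NOMO-1, and CCR7 and LYZ in KG-1a. The rest were CCR7, FCER1A, NPC1, RDH10, ULBP3 and ZBTB46 in Sig-M5. For these, "rose" and "fell" below report the call of the test only.

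Lipid transfer proteins, which lift lipids out of lysosomal membranes for loading on CD1, rose in the lines where CD1D was higher: 3 of 4 in MV-4-11, OCI-AML3 and Sig-M5 and 2 of 4 in NOMO-1, against 0 of 4 in Kasumi-1, KG-1a and OCI-M1 (limma). At an unadjusted p below 0.05, 2 were higher in OCI-M1, 1 was lower in KG-1a and none passed in Kasumi-1. Their median change was 1.03 in MV-4-11, 0.63 in OCI-AML3, 0.36 in NOMO-1 and 0.83 in Sig-M5. PSAP, the precursor of the saposins, read 10.95, 10.97 and 11.06 with tamibarotene in MV-4-11, against 9.65, 9.47 and 9.63 with vehicle. It read 12.15, 12.16 and 12.16 with tamibarotene in OCI-AML3, against 10.45, 10.49 and 10.34 with vehicle. PSAP did not overlap between arms in either line and rose by 1.41 ± 0.07 in MV-4-11 (limma adjusted p = 5.01e-16) and 1.73 ± 0.07 in OCI-AML3 (limma adjusted p = 5.36e-18). In Sig-M5 PSAP read 11.79, 11.74 and 11.85 with tamibarotene, against 9.87 and 9.88 with vehicle, a rise of 1.92 ± 0.08. In NOMO-1, where vehicle cells already had 12.12, the rise was 0.37 ± 0.07 (limma adjusted p = 0.000911, and 0.158 with the line fitted alone).

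NPC2, which carries cholesterol and other lipids in the lysosome, rose in the same 4 lines, by 1.34 ± 0.10 in MV-4-11, 0.75 ± 0.10 in OCI-AML3, 0.71 ± 0.10 in NOMO-1 and 1.04 ± 0.11 in Sig-M5. Its 4 probe sets disagreed: in MV-4-11 they ran from -0.33 to 1.34. GM2A, the activator of ganglioside breakdown, rose by 0.73 in MV-4-11 and 0.52 in OCI-AML3. NPC1, the membrane partner of NPC2, rose in Sig-M5 alone by test, by 0.62, and lost that call without vehicle array 2 (0.37) or with the actin covariate (0.46).

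**Figure D3:**
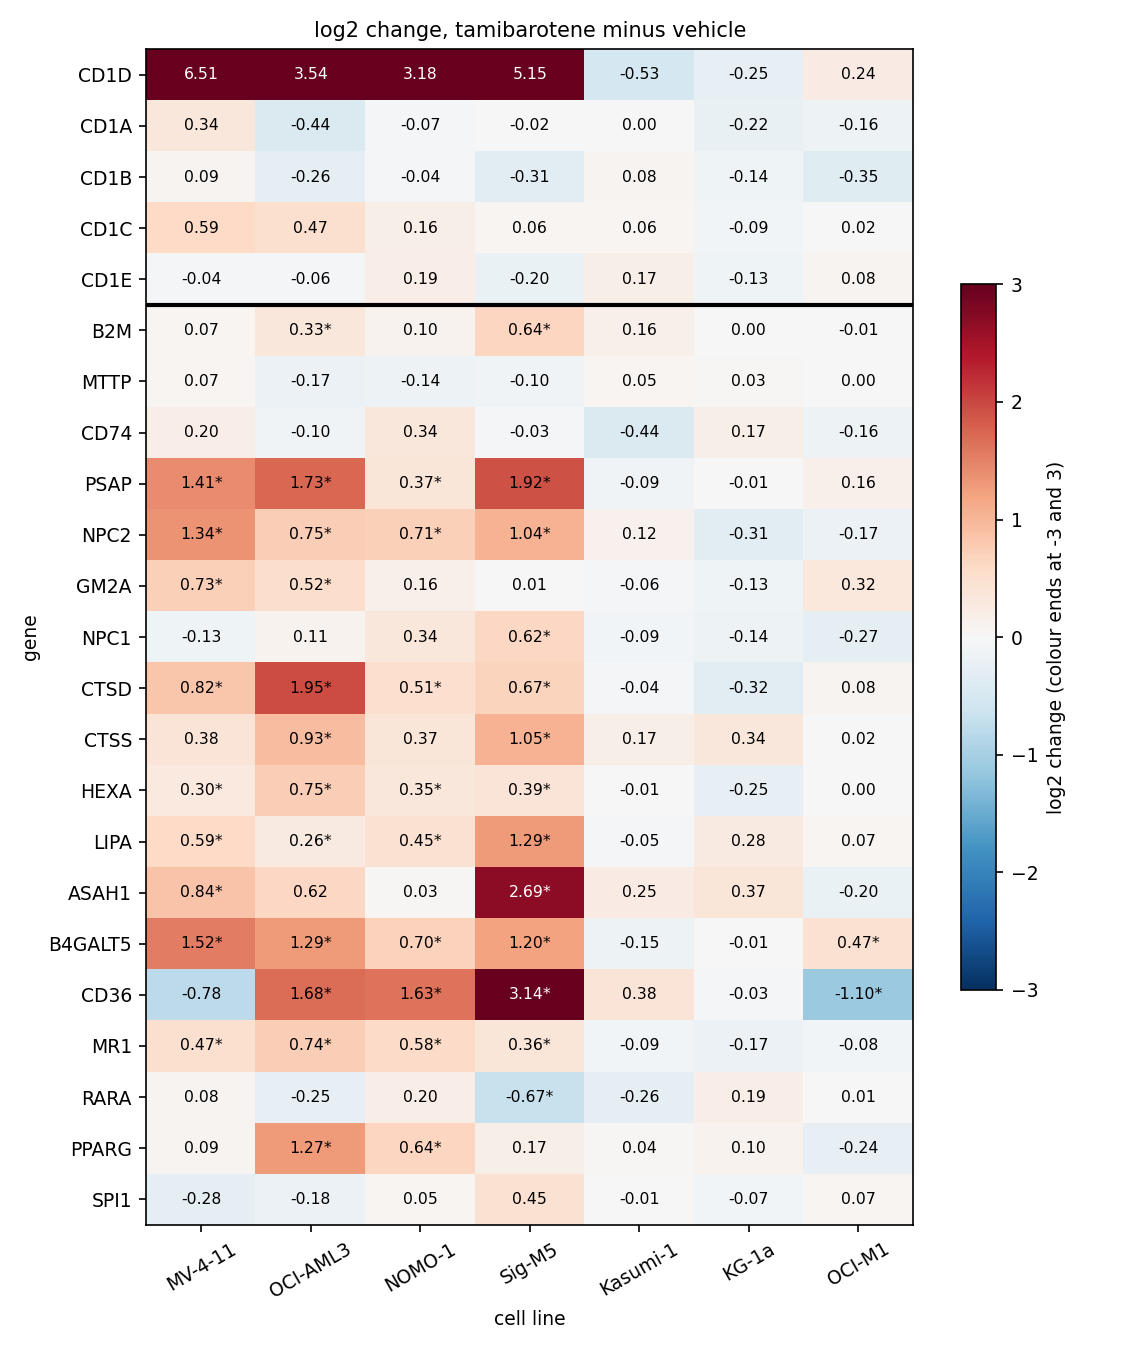
Log2 difference, tamibarotene minus vehicle, by cell line. The 5 CD1 genes are above the line, and below it is a selection of the 90 list genes: partner and regulator genes and the relative MR1. Genes that fell in some lines, such as RXRA, PROCR, SGMS1 and SGMS2, are not shown, so the panel does not stand for the full lists. Colour and number give the difference, and an asterisk marks a gene below the line with a limma adjusted p below 0.05. PSAP, NPC2, CTSD, HEXA, LIPA, B4GALT5 and MR1 carry asterisks in MV-4-11, OCI-AML3, NOMO-1 and Sig-M5.

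Lysosomal enzymes and membrane proteins, of which 14 were measured, included several that rose: 8 in MV-4-11, 6 in OCI-AML3, 4 in NOMO-1 and 9 in Sig-M5, with none falling. In KG-1a 1 rose, and in Kasumi-1 and OCI-M1 0 changed by limma, with 1 fall in each at an unadjusted p below 0.05. CTSD, an aspartic protease, rose by 1.95 ± 0.14 in OCI-AML3, 0.82 in MV-4-11, 0.67 in Sig-M5 and 0.51 in NOMO-1. CTSS, a cysteine protease that cleaves the invariant chain, rose by 0.93 in OCI-AML3 and 1.05 in Sig-M5. LIPA, the lysosomal acid lipase, rose by 1.29 in Sig-M5, 0.59 in MV-4-11, 0.26 in OCI-AML3 and 0.45 in NOMO-1. ASAH1, an acid ceramidase, rose by 2.69 in Sig-M5 and 0.84 in MV-4-11, while its 5 probe sets in Sig-M5 ran from 0.06 to 2.69. HEXA, which trims gangliosides, rose by 0.75 in OCI-AML3, 0.39 in Sig-M5, 0.35 in NOMO-1 and 0.30 in MV-4-11.

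The protease CTSB rose by 1.23 in MV-4-11, 0.63 in OCI-AML3 and 0.59 in KG-1a. SMPD1, the acid sphingomyelinase, rose by 1.27 in MV-4-11, the protease CTSL by 0.91 in NOMO-1 and GALC, which degrades galactosylceramides, by 1.11 in Sig-M5. The smaller of the CTSD, HEXA, LIPA and ASAH1 rises were lost when 1 array was left out. CTSD in NOMO-1 lost its call without tamibarotene array 2 (0.40) or 3 (0.54) or vehicle array 1 (0.56) or 3 (0.35), and LIPA in OCI-AML3 without tamibarotene array 1 (0.23) or vehicle array 3 (0.24). ASAH1 in MV-4-11 lost its call without tamibarotene array 1 (0.79) or 2 (0.74) or vehicle array 1 (0.76) or 3 (0.69). HEXA kept its call in MV-4-11 only when vehicle array 1 was the array left out (0.23 to 0.33 without one of the others). HEXA in NOMO-1 lost it without tamibarotene array 1 or 2 or vehicle array 1 or 3 (0.29 to 0.36), and in Sig-M5 without vehicle array 2 (0.15). With the actin covariate, CTSS (0.50), GALC (0.84) and HEXA (0.18) lost their calls in Sig-M5.

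Enzymes of glycolipid and ether lipid synthesis make candidate CD1D ligands (19 measured). They had 1 rise each in MV-4-11, OCI-AML3, NOMO-1 and OCI-M1, 4 in Sig-M5, 2 falls in NOMO-1, 3 in Sig-M5 and 1 in Kasumi-1. The share called in either direction was 36.8% in Sig-M5, 15.8% in NOMO-1 and 5.26% each in MV-4-11, OCI-AML3, Kasumi-1 and OCI-M1. Of all genes, 8.5% rose and 18.4% fell in Sig-M5, and 2.77% rose and 0.711% fell in NOMO-1. KG-1a had 0 changes by limma, and 1 gene higher and 2 lower at an unadjusted p below 0.05. The rises outside Sig-M5 were all of B4GALT5, a lactosylceramide synthase, by 1.52 ± 0.10 in MV-4-11, 1.29 ± 0.10 in OCI-AML3, 0.70 ± 0.10 in NOMO-1 and 0.47 ± 0.10 in OCI-M1, and it rose by 1.20 ± 0.11 in Sig-M5. Its OCI-M1 call was lost without tamibarotene array 2 (0.43) or 3 (0.41) or vehicle array 1 (0.34). The sphingomyelin synthases SGMS1 (-0.77) and SGMS2 (-0.83) fell in NOMO-1. SGMS1 lost that call without tamibarotene array 2 (-0.69) or vehicle array 3 (-0.66), and SGMS2 without tamibarotene array 2 (-0.61) or 3 (-0.86) or vehicle array 1 (-0.54) or 3 (-0.68). In Sig-M5, SPTLC2, a subunit of serine palmitoyltransferase, rose by 0.89 and AGPS, an ether lipid enzyme, by 0.86. The AGPS call was lost without vehicle array 2 (0.81) and with the actin covariate (0.54). GNPAT, another ether lipid enzyme, fell by 0.49 in Kasumi-1 and by 0.33 in Sig-M5. Its Kasumi-1 call was lost without tamibarotene array 2 (-0.42) or 3 (-0.48) or vehicle array 2 (-0.39), and its Sig-M5 call without any one array except vehicle array 1 (-0.34 to -0.17).

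Of 5 lipid uptake receptors, the scavenger receptor CD36 was the main mover. CD36 rose by 3.14 in Sig-M5, 1.68 in OCI-AML3 and 1.63 in NOMO-1, had a difference of -0.78 in MV-4-11 that did not pass, and fell by 1.10 in OCI-M1. The OCI-M1 call was lost when any one array but tamibarotene array 3 was left out (-1.15 to -0.91). SCARB1, a receptor for high-density lipoprotein, fell by 0.54 in Sig-M5 and lost its call without any one array (-0.63 to -0.46). No receptor passed in MV-4-11, Kasumi-1 or KG-1a by limma, where 1, 0 and 1 were lower at an unadjusted p below 0.05.

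Among 5 genes of assembly, B2M, the light chain of every CD1 protein, rose by 0.33 ± 0.08 in OCI-AML3 and 0.64 ± 0.09 in Sig-M5 and differed by -0.01 to 0.16 in the other lines. It read high in all lines, between 12.60 and 13.48 as vehicle means. MTTP, which loads lipid on CD1D in the endoplasmic reticulum, differed by -0.17 to 0.07 and passed in none. Its arrays read 3.58 to 4.43, all below the guide level, so a lack of response is not read from these differences. No other assembly gene passed in any line by limma, and in MV-4-11, NOMO-1, Kasumi-1, KG-1a and OCI-M1 the list had 0, 1, 0, 0 and 2 genes at an unadjusted p below 0.05. Of 13 trafficking and adaptor genes, none passed in MV-4-11, OCI-AML3, KG-1a or OCI-M1 by limma (1, 1, 1 and 0 at an unadjusted p below 0.05), 1 rose in NOMO-1, 3 rose and 3 fell in Sig-M5 and 1 fell in Kasumi-1. Of all genes, 2.77% rose in NOMO-1, 8.5% rose and 18.4% fell in Sig-M5 and 2.36% fell in Kasumi-1. AP3S1, a subunit of the adaptor complex that sorts cargo to lysosomes, rose by 0.42 in NOMO-1 and 0.61 in Sig-M5. In Sig-M5 the adaptor subunit AP3M1 rose by 0.77, the late endosomal RAB7A by 0.90, and the endocytic adaptor AP2A2 fell by 0.91. All 3 lost their calls with the actin covariate (0.18, 0.40 and -0.34), and AP3M1 also without any one array except vehicle array 1 (0.40 to 0.85). AP2B1 fell by 1.15 in Kasumi-1 and lost that call without tamibarotene array 2 (-1.07) or vehicle array 2 (-0.72). CD74, the invariant chain, differed by -0.44 to 0.34 and passed in none.

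Among 10 other MHC class I-like genes, MR1, which presents vitamin B metabolites to mucosal-associated invariant T cells, rose in the lines where CD1D was higher. The rise of MR1 was 0.74 ± 0.12 in OCI-AML3, 0.58 ± 0.12 in NOMO-1, 0.47 ± 0.12 in MV-4-11 and 0.36 ± 0.13 in Sig-M5. MR1 in Sig-M5 lost its call without tamibarotene array 2 (0.38) or 3 (0.30) or vehicle array 2 (0.22), and its difference with the actin covariate was 0.03. With NOMO-1 fitted alone, the MR1 call there was lost (limma adjusted p = 0.117). In Kasumi-1, KG-1a and OCI-M1 the MR1 differences were -0.09, -0.17 and -0.08. FCGRT, the neonatal Fc receptor, rose by 0.70 in MV-4-11 and by 0.40 in Sig-M5, where the call was lost without tamibarotene array 1 (0.32) or 3 (0.33) or vehicle array 1 (0.23). PROCR, the endothelial protein C receptor, fell by 1.32 in OCI-AML3. The stress ligands MICA (-0.45), MICB (-0.31) and ULBP3 (-0.64) fell in Sig-M5, and MICB rose by 0.30 in OCI-AML3. MICA lost its call without tamibarotene array 1 (-0.30) or vehicle array 2 (-0.34). MICB lost it in Sig-M5 without tamibarotene array 3 (-0.24) or vehicle array 1 (-0.26) or 2 (-0.37), and in OCI-AML3 without tamibarotene array 1 or 3 or vehicle array 1 or 3 (0.28 to 0.30). The list as a whole had 2 rises in MV-4-11, 2 rises and 1 fall in OCI-AML3, 1 rise in NOMO-1 and 2 rises and 3 falls in Sig-M5. Of all genes, 4.32% rose in MV-4-11, 5.5% rose and 6.36% fell in OCI-AML3, 2.77% rose in NOMO-1 and 8.5% rose and 18.4% fell in Sig-M5. By limma 0 passed in Kasumi-1, KG-1a and OCI-M1, where 1, 2 and 0 had an unadjusted p below 0.05.

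Of 8 costimulatory and cytokine genes, IL18, a cytokine that activates NKT cells, rose by 1.22 in MV-4-11 and 0.80 in OCI-AML3, and CD40, a costimulatory receptor, rose by 0.81 in OCI-AML3. No other member passed in any line by limma, and 3, 1, 0, 1 and 2 had an unadjusted p below 0.05 in NOMO-1, Sig-M5, Kasumi-1, KG-1a and OCI-M1.

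The route from retinoid to CD1D in dendritic cells runs through the retinoic acid receptors and is fed by PPARG, a lipid-sensing nuclear receptor. RARA, the receptor that tamibarotene binds, had vehicle levels of 9.11 in Sig-M5, 8.49 in OCI-AML3, 8.38 in MV-4-11, 7.80 in OCI-M1, 7.61 in KG-1a, 7.58 in Kasumi-1 and 7.17 in NOMO-1. With drug, RARA fell by 0.67 in Sig-M5, a call lost without vehicle array 2 (-0.41), and passed in no other line. RXRA, the dimer partner of RARA, fell by 2.35 in Sig-M5, 0.93 in MV-4-11 and 0.85 in OCI-AML3. PPARG rose by 1.27 in OCI-AML3 and 0.64 in NOMO-1, and the NOMO-1 call was lost without tamibarotene array 1 (0.56) or vehicle array 1 (0.63) or 3 (0.58). The vehicle arrays of both lines lay below the guide level for PPARG. With tamibarotene it read close to that level, at 6.26 to 6.46 in OCI-AML3 and 6.33 to 6.61 in NOMO-1. In the other lines PPARG read 3.74 or lower on every array.

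FABP4, a lipid carrier and target of PPARG, rose by 0.57 in NOMO-1, which was lost without tamibarotene array 3 (0.47) or vehicle array 3 (0.51). RDH10, which makes retinal, fell by 0.65 in OCI-AML3 and rose by 0.58 in Sig-M5, and the Sig-M5 call was lost without vehicle array 2 (0.18). TGM2, a transglutaminase known to respond to retinoids, rose by 1.83 in OCI-AML3, 0.95 in OCI-M1 and 0.54 in MV-4-11 and fell by 0.35 in Sig-M5. Its 4 probe sets disagreed widely, from 1.83 to 7.12 in OCI-AML3, from 0.54 to 5.38 in MV-4-11 and from -0.35 to 2.21 in Sig-M5, and the Sig-M5 fall was lost without tamibarotene array 1 or 2 (both -0.32) or vehicle array 2 (-0.15). The list of 8 had 1 rise and 1 fall in MV-4-11, 2 and 2 in OCI-AML3, 2 and 0 in NOMO-1, 1 and 3 in Sig-M5 and 1 and 0 in OCI-M1. Of all genes, the shares rising and falling were 4.32% and 3.4% in MV-4-11, 5.5% and 6.36% in OCI-AML3 and 2.77% and 0.711% in NOMO-1. They were 8.5% and 18.4% in Sig-M5 and 0.7% and 0.386% in OCI-M1. By limma 0 passed in Kasumi-1 and KG-1a, with 2 and 0 at an unadjusted p below 0.05. Of 4 factors reported at CD1D promoters, SPI1 passed in no line (-0.28 to 0.45), and LEF1 fell by 1.54 in KG-1a, the single change in that list. In the other 6 lines 0 of the 4 passed by limma, with 0 in MV-4-11, OCI-AML3 and OCI-M1 and 1 each in NOMO-1, Sig-M5 and Kasumi-1 at an unadjusted p below 0.05.

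Markers of dendritic cells, the cells best known for CD1 proteins, went both ways. Of 10 measured, 2 rose and 1 fell in MV-4-11, 1 rose in OCI-AML3, 1 rose and 3 fell in Sig-M5, 1 rose in KG-1a and 1 rose and 1 fell in OCI-M1 (limma). Of all genes, 4.32% rose and 3.4% fell in MV-4-11, 5.5% rose in OCI-AML3 and 8.5% rose and 18.4% fell in Sig-M5. In KG-1a 1.21% rose, and in OCI-M1 0.7% rose and 0.386% fell. Of the 70 marker differences over all lines, 11 passed and 17 had an unadjusted p below 0.05. Their summed log2 level (10 genes) was 54.8 with tamibarotene and 52.9 with vehicle in MV-4-11, 42.2 and 40.3 in OCI-AML3, 47.2 and 47.2 in NOMO-1, 42.0 and 42.8 in Sig-M5, 40.7 and 39.7 in Kasumi-1, 44.4 and 42.6 in KG-1a, and 46.5 and 46.7 in OCI-M1. At most 3 of the 10 had a mean above the guide level in a line (MV-4-11), and 0 had in Kasumi-1 and KG-1a in either arm. The sums therefore rest largely on dim probe sets, and no shift in cell identity is read from them. In MV-4-11 the lectin CLEC10A rose by 1.22 and the transcription factor IRF4 by 2.27, while FCER1A, the IgE receptor chain, fell by 1.86. FCER1A also fell in Sig-M5 (-0.80) and OCI-M1 (-1.26). The cytokine receptor FLT3 rose by 2.01 in OCI-AML3 and 1.66 in Sig-M5, the Sig-M5 rise not passing with the actin covariate (1.36). The chemokine receptor CCR7 rose by 1.43 in KG-1a and 1.62 in OCI-M1 and fell by 1.04 in Sig-M5. ZBTB46 fell by 0.33 in Sig-M5 and lost that call without tamibarotene array 3 (-0.31) or vehicle array 2 (-0.26). Both arms lay below the guide level for CCR7 in KG-1a and Sig-M5, and for FCER1A and ZBTB46 in Sig-M5. CD207, CD209, LAMP3 and CLEC9A passed in no line. Their vehicle means lay below the guide level in every line, so a lack of response is not read from them. Of 5 myeloid markers, PTPRC and CSF3R rose in Sig-M5, CSF3R rose in OCI-AML3 and LYZ fell in KG-1a. Of these, PTPRC and CSF3R in Sig-M5 lost their calls without vehicle array 2 (1.22 and 0.62), PTPRC also without tamibarotene array 2 (1.39), and LYZ without vehicle array 1 (-0.19). Their part in the CD1D differences was not tested.

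To describe which genes looked most like CD1D, Pearson's r was taken over the 7 line differences among 1245 genes with a difference of at least 1 in some line. The 7 points fall into 4 with large and 3 with small CD1D differences, and the CD1D values come from the same arrays as those of the other genes, so r is given without a p. The 5 highest were ANGEL1 (0.98), the integrin chain ITGA6 (0.98), the myosin-binding protein MYBPH (0.98), the inhibitory receptor LILRB2 (0.97) and the secretory-pathway kinase FAM20C (0.97). ITGA6 differed by 5.47 in MV-4-11, 3.65 in Sig-M5, 2.36 in OCI-AML3, 1.42 in NOMO-1 and -0.60 to -0.01 in the other 3 lines. LILRB2 differed by 4.10, 2.49, 2.44 and 1.81 in MV-4-11, Sig-M5, OCI-AML3 and NOMO-1. Over the 14 group means, which also carry the vehicle order, ANGEL1 and ITGA6 were no longer alike (r = 0.06 and 0.32), MYBPH, LILRB2 and FAM20C were (0.89, 0.87 and 0.92), and B4GALT5 had the highest r (0.98). NPC2 had r = 0.97 (rank 9) and PSAP 0.86 (rank 66) over the 7 differences.

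**Figure D4:**
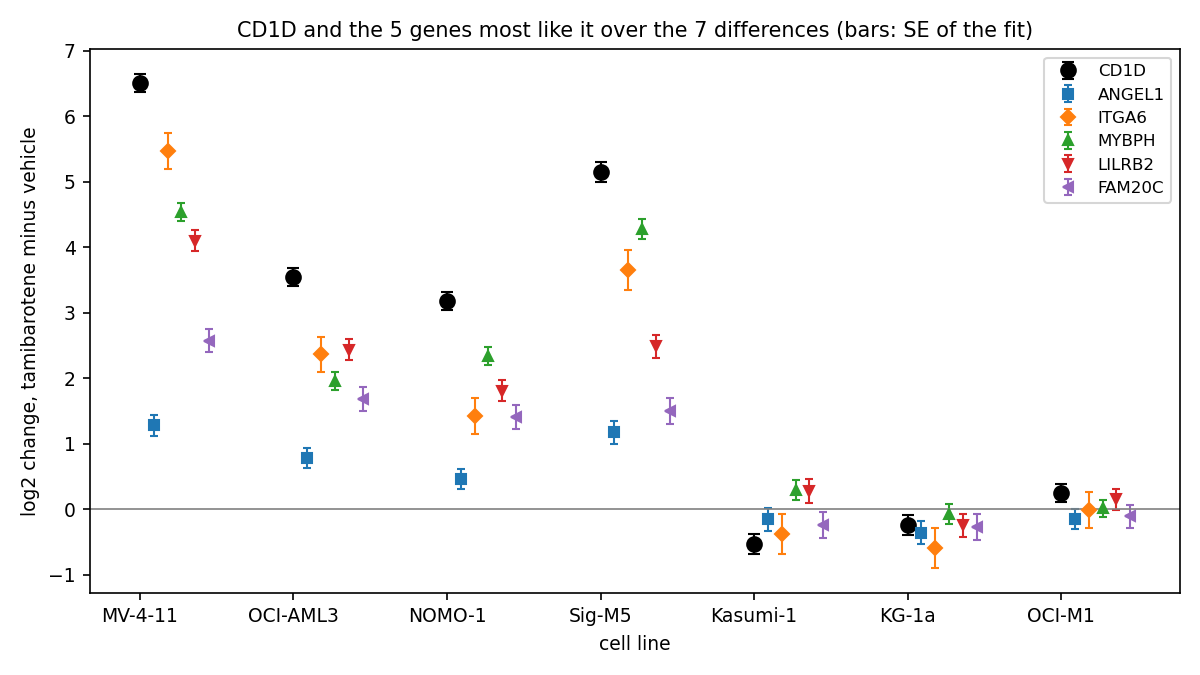
Log2 difference, tamibarotene minus vehicle (y axis), of CD1D and the 5 genes with the highest Pearson's r to it, in the 7 cell lines (x axis). Points are fitted differences and bars their SE; all 6 genes are at 0.46 or higher in MV-4-11, OCI-AML3, NOMO-1 and Sig-M5 and between -0.60 and 0.29 in Kasumi-1, KG-1a and OCI-M1.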

How the data were processed

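The authors deposited log2 expression values from Affymetrix PrimeView arrays, and the submitters' processing notes name RMA and the affy package. RMA subtracts background, makes array distributions alike and summarises probes, so a shift common to most genes would not show. Depth does not apply to arrays, and the number of arrays limits the precision.

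Groups came from the labels. Gene symbols came from the platform annotation: 44988 probe sets had 1 symbol, 1832 several and 2473 none, and 102 control probe sets were left out. A gene's value was its probe set with the highest mean, giving 18132 genes. One limma 3.58.1 fit in R 4.3.3 gave the 14 group means (25 residual degrees of freedom), 1 contrast a line and an F test over the vehicle means, with Benjamini-Hochberg adjustment over all genes and a threshold of 0.05. On simulated data the fit was checked to recover known changes. Figures used matplotlib 3.10.9. Of 95 list genes 90 were measured, and the other 5 are not analysed here.

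Named genes were the 5 members, a set of CD1 partners and regulators, up to 3 called members with the largest change per list and line, the 5 genes most like CD1D, the neighbour with the largest change per line and the cell type markers. The members and lists were chosen with earlier results of these data known. The replicate numbers come from the sample titles, which do not say whether equal numbers pair arrays. Numbers were taken to pair arrays where, with 3 pairs, every pair's deviations correlated above 0.1. That held in OCI-M1 (r = 0.12 to 0.37) and not in MV-4-11 (0.0995 to 0.67), NOMO-1 (0.01 to 0.57) or OCI-AML3 (-0.04 to 0.46). The other lines had 2 pairs. With so few arrays in a group, this rule neither establishes nor excludes pairing in any line. Alternatives were a replicate block, quantile normalization, a beta-actin 3' to 5' covariate, separate fits, array weights, an intensity trend with a robust prior, the mean of all probe sets, a filter on dim genes and the omission of each array in turn.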

Additional observations from a re-analysis of the deposited data

Results flagged for a closer look

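Several genes had every tamibarotene array on one side of the vehicle arrays in one line and on the other side in another line. The difference between the lines' effects is given for the widest such pair of each gene, was not tested, and is the change in the first line named minus that in the second on the log2 scale. By line, 5.53% to 16% of all genes were higher and 4.89% to 31.9% lower without overlap. In KG-1a, which is in many of the pairs, these shares were 16% and 23.2%. The share of all genes with such a pair is not given here, so nothing is read from the pairs as a set.

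Within the family, CD1D differed by 7.04 between MV-4-11 and Kasumi-1, and CD1A by 0.56 between MV-4-11 and KG-1a. The CD1D change was positive without overlap in 4 lines and negative in 1, and the CD1A change was positive in 1 line and negative in 2. In Kasumi-1 CD1D, and in every line CD1A, lay below the guide level of 6.33 in both arms.

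Between MV-4-11 and KG-1a the effect differed by 1.65 for NPC2, 0.86 for GM2A, 1.65 for IL18 and 1.02 for FCGRT. Between OCI-AML3 and KG-1a it differed by 0.91 for MR1, 2.26 for CTSD and 1.003 for HEXA. Against KG-1a, Sig-M5 differed by 1.09 for CSF3R, 0.68 for SGMS2 and 1.15 for SPTLC2, NOMO-1 by 0.73 for FABP4 and Kasumi-1 by 1.75 for LEF1. KG-1a differed from Sig-M5 by 0.86 for RARA.

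Sig-M5 differed from Kasumi-1 by 1.22 for AP3M1, 0.80 for AP3S1 and 1.41 for GALC, from OCI-M1 by 4.24 for CD36, from NOMO-1 by 1.24 for RAB7A and from OCI-AML3 by 1.24 for RDH10. OCI-AML3 differed from Sig-M5 by 0.62 for MICB and 2.18 for TGM2, and from OCI-M1 by 1.503 for PPARG. MV-4-11 differed from OCI-M1 by 1.81 for SMPD1. Among dendritic cell markers, FCER1A differed by 2.22 between Kasumi-1 and MV-4-11, CCR7 by 2.66 between OCI-M1 and Sig-M5 and ZBTB46 by 0.58 between NOMO-1 and Sig-M5.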

How the results depend on the processing

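The CD1D difference kept its sign in each of the 7 lines under all alternatives. In Kasumi-1, KG-1a and OCI-M1 both arms lay below the guide level, and no direction is read there. Without single arrays the CD1D difference ranged from 6.32 to 6.62 in MV-4-11, 3.52 to 3.57 in OCI-AML3, 3.10 to 3.24 in NOMO-1, 5.02 to 5.28 in Sig-M5, -0.69 to -0.36 in Kasumi-1, -0.41 to -0.09 in KG-1a and 0.12 to 0.35 in OCI-M1. With the mean of all probe sets it was 3.51 in MV-4-11, 3.28 in OCI-AML3, 1.64 in NOMO-1, 2.82 in Sig-M5 and 0.0176 in OCI-M1, and CD1C was 0.40 in MV-4-11. On the dimmer CD1D probe set alone the difference was -0.21 in OCI-M1. With quantile normalization it was 3.61 in OCI-AML3 and 5.34 in Sig-M5. CD1B between vehicle lines passed only with the mean of all probe sets (limma adjusted p = 0.017). That setting also reversed GNPAT (0.40), MICB (0.21) and TGM2 (0.45) in Sig-M5 and TGM2 in KG-1a (0.45). Leaving out single arrays, the F test's adjusted p in limma ranged over 1e-26 to 4.36e-24 for CD1D, 2.05e-16 to 2.49e-14 for CD1A, 0.115 to 0.356 for CD1B, 4.62e-09 to 1.05e-06 for CD1C and 0.00183 to 0.0264 for CD1E. Counts of the 90 pathway genes moved more, and the cause was not tested. With the replicate block, 4 fell in MV-4-11, 4 rose and 8 fell in Kasumi-1 and 2 rose in KG-1a. In OCI-M1, where the rule above took the numbers to pair arrays, the block left 2 rising and 1 falling. It changed no call named in the text for that line. The calls of MR1 (0.30), FCGRT (0.33) and MICB (-0.24) in Sig-M5 were lost with the block. With quantile normalization, 1 rose and 1 fell in Kasumi-1. With the actin covariate, 13 rose and 2 fell in Sig-M5, 0 fell in Kasumi-1 and 2 rose and 2 fell in KG-1a. With each line fitted alone, 2 fell in MV-4-11, 4 rose and 0 fell in NOMO-1, 8 fell in Sig-M5, 0 fell in Kasumi-1, 5 fell in KG-1a and 1 rose in OCI-M1. With array weights, 5 fell in MV-4-11, 10 in OCI-AML3, 7 in NOMO-1, 6 in Sig-M5, 0 in Kasumi-1 and 2 in OCI-M1, and 6 rose and 15 fell in KG-1a. With the intensity trend and robust prior, 1 rose in Kasumi-1. With the mean of all probe sets, 2 fell in MV-4-11, 2 rose and 2 fell in KG-1a and 2 fell in OCI-M1. Without the dimmest genes, 1 fell in NOMO-1, 1 rose in Kasumi-1 and 2 rose in KG-1a. Without single arrays the counts of genes rising ranged over 13 to 15 in MV-4-11, 16 to 18 in OCI-AML3, 8 to 12 in NOMO-1, 16 to 22 in Sig-M5, 0 to 4 in Kasumi-1, 1 to 1 in KG-1a and 1 to 2 in OCI-M1. Those falling ranged over 1 to 2, 3 to 4, 0 to 5, 4 to 13, 0 to 7, 1 to 1 and 0 to 1 in the same lines.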
